A study of Mus musculus with 16 samples.

Results

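Nested coding genes are protein-coding genes that sit, whole, between the exons of another protein-coding gene, their host. They were taken from the gene annotation deposited with a study of mouse bone-marrow-derived macrophages. Among its Ensembl models on chromosomes 1 to 19, a coding gene was a member if its span lay inside the span of another coding gene and touched none of that gene's merged exons on either strand. The rule found 514 nested genes among 20826 coding genes, which is 2.47% (Wilson 95% interval 2.27 to 2.69). They lay in 303 hosts and formed 592 pairs of nested gene and host, since 41 nested genes had several hosts. On the strand of the host lay 182 genes, and on the opposite strand 332, or 64.6% (60.4 to 68.6).

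The study sequenced 16 libraries from macrophages grown out of marrow, untreated or given lipopolysaccharide (LPS), the bacterial surface molecule sensed by Tlr4. RNA-seq covered wild-type C57BL/6 cells, with 3 untreated and 3 LPS libraries. RiboTag recovers RNA bound to a tagged ribosomal protein, and here LysM-Cre, active in myeloid cells, switched the tag on. The RiboTag libraries were 2 untreated, 2 after LPS for 6 h and 2 after LPS for 24 h. Ribosome profiling sequences the fragments that ribosomes protect. It covered wild-type C57BL/6 cells treated with cycloheximide, with 2 untreated and 2 LPS libraries. For RNA-seq and profiling the hours of LPS are not given per library. The annotation holds no value per library, so read depth, expression and the labelled cell type were not analysed here. No test was run, because gene models are not replicates. Intervals cover counting error only, and shares are set apart only where their intervals do not overlap.

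A nested gene has its own promoter, exons and reading frame, and its DNA is also transcribed when a host transcript runs across it, as part of a host intron that is spliced out and degraded. On the opposite strand the host's RNA is antisense to the nested gene. On the same strand the unspliced host RNA carries the nested gene's sequence in sense, which is why the strands are described apart. Many nested genes of mammals have a single exon, and some of these are retrogenes, copies of a spliced messenger RNA put back into the genome. Other nested genes belong to families of cell-surface receptors and secreted proteins. In macrophages the subject bears on such genes as Myd88, the adaptor that carries signals from most Toll-like receptors, and B2m, the light chain of major histocompatibility complex class I.

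The start sites of 5 members are shown because each begins inside an exon-free gap of its host and because both strands and several roles are covered. Each run is the stretch just before the exon at the gene's RefSeq start, taken from RefSeq start windows on mm10, 5′ to 3′ on the strand of the nested gene, and every CG dinucleotide is in capitals. Myd88, in Slc22a14 and on its strand, has 9 CG in 227 bases of chr9:119340042-119340268 on the minus strand, and a further Myd88 exon lies upstream of this start. The whole run also lies within the span of Acaa1a, a coding gene on the plus strand. B2m, opposite to Patl2, has 8 CG in 249 bases of chr2:122147437-122147685 on the plus strand. P2ry13, a nucleotide receptor opposite to Med12l, has 5 CG in 250 bases of chr3:59210883-59211132 on the minus strand. Evi2b, a membrane protein of blood cells opposite to Nf1, has 3 CG in 250 bases of chr11:79523763-79524012 on the minus strand. Mcts2, an imprinted retrogene in H13 and on its strand, has 12 CG in 137 bases of chr2:152686898-152687034 on the plus strand.
Myd88: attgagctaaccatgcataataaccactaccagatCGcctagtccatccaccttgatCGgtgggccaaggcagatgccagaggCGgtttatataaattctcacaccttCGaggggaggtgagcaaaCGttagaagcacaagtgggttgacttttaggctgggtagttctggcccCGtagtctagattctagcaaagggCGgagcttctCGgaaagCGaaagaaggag
B2m: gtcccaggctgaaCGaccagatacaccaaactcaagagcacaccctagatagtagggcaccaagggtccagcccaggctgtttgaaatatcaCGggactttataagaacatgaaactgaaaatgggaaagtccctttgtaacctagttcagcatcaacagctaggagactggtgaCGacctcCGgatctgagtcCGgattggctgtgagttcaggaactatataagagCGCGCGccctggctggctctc
P2ry13: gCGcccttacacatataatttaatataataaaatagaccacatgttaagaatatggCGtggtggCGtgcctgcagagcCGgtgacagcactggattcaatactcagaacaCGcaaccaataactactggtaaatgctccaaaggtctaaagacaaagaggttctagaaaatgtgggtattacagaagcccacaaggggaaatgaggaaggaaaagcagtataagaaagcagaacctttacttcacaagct
Evi2b: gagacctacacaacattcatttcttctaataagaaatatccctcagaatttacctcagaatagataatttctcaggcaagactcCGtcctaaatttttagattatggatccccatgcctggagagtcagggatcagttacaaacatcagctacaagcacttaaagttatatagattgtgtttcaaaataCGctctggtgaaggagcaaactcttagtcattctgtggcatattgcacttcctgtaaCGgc
Mcts2: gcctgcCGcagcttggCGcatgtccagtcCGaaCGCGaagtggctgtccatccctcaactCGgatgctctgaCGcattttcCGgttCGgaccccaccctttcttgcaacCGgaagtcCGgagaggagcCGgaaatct
Per 100 bases these stretches hold 8.76 CG before Mcts2, 3.96 before Myd88, 3.21 before B2m, 2 before P2ry13 and 1.2 before Evi2b. Across the 15693 coding genes with a RefSeq start window the median was 4.4 per 100 of the 250 bases before the start, and 93.2% of windows held at least 1 CG. CG reads the same on both strands. Of the runs shown only Mcts2 lay above that median. The runs of Mcts2, Myd88 and B2m stop at an exon short of the 250 bases, so their values are not strictly comparable with it. A window was found for 326 of the 514 nested genes, or 63.4%, so nested genes as a group were not compared with other genes.

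Nested genes were short and had few exons. Their median span was 5504 bases (95% interval 4705 to 6669), against 17134.5 bases (16689 to 17590) for the 20312 coding genes that are not nested. The median number of merged exons was 3, against 7. A short span is partly set by the rule, since a gene has to fit into its gap. The longest coding sequence had a median of 315.5 codons (305 to 349) against 396 (390 to 402). A coding sequence has to fit into the gap too, so the rule can bear on this difference as well. A single merged exon was found in 143 nested genes, or 27.8% (24.1 to 31.8), against 11.2% (10.7 to 11.6) of the others. Only 1 transcript was annotated for 57.8% of nested genes and for 38.2% of the others. Symbols of the Gm or Rik kind, given to models without an established name, made up 23.9% (20.4 to 27.8) of nested genes and 9.63% (9.23 to 10.0) of the others. RefSeq lists as a pseudogene 30 of the 480 nested genes matched to it, or 6.25% (4.41 to 8.78), against 1.41% (1.26 to 1.58) of the other matched genes.

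The genes on each strand are described apart, and 1 gene cluster weighs on the comparison. Genes on the host's strand had a median of 416 codons (360 to 495), and genes on the opposite strand 288.5 (243 to 312). Without protocadherins the same-strand median was 350.5 (314 to 396). Without the 5 hosts with the most nested genes the medians were 314 (276 to 350) and 250 (223 to 302), whose intervals overlap. Among genes whose span also lies within that of a host in RefSeq, the same-strand median was 654 codons (507 to 786). It was 337 (279 to 421) without protocadherins, against 290 (226 to 327) on the opposite strand. A single exon was found in 65 of 182 same-strand genes, or 35.7% (29.1 to 42.9), and in 78 of 332 opposite-strand genes, or 23.5% (19.3 to 28.3). Of the 143 single-exon nested genes, 22 are Pcdhb genes of the chromosome 18 cluster, cell-adhesion proteins of neurons that each have 1 exon. Without protocadherins the same-strand share was 28.7% (22.0 to 36.3), which overlaps the interval of the opposite strand. Coding sequences of at most 100 codons were found in 2 same-strand genes and 22 opposite-strand genes, which is 1.10% (0.302 to 3.92) and 6.63% (4.42 to 9.83).

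The gaps that held nested genes were long. The median gap was 62106 bases (55253 to 74705), while the median over all 4563 exon-free gaps of the hosts was 1983 bases. A gap has to be longer than the gene it holds, so this difference is partly set by the rule. Nested genes took up a median of 8.0% of their gap, with 4.65% (2.38 to 6.46) on the same strand and 12.1% (9.71 to 15.2) on the opposite strand. Without the 5 hosts with the most nested genes, 101 of 182 same-strand and 279 of 332 opposite-strand genes remain. The share of the gap was not recomputed for them, so the very long gaps of those hosts can weigh on this contrast. The lowest share was 0.0369% and the highest 95.7%. The genes that fill most of their gap on the opposite strand were Tmem198 in Obsl1 with 95.7% of 6453 bases, Iqcb1 in Eaf2 with 95.6% of 46366 bases, and 4930544D05Rik in Chrne with 88.5% of 1179 bases. On the same strand they were Pnp2 in Pnp with 75.4% of 11610 bases and Ndufa13 in Yjefn3 with 71.4% of 11730 bases. The pairs of Tmem198, Pnp2 and Ndufa13 each rest on 1 of several host transcripts, and their spans lie apart in RefSeq. Those of Iqcb1 and 4930544D05Rik are contained there. Pnp2 and Pnp are neighbouring copies of purine nucleoside phosphorylase, and reads from such copies can be hard to assign. The closest fit to a host exon was that of Lrtm2, opposite to Cacna2d4, with 2 bases between its 5′ end and the host's next exon.

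**Figure D1:**
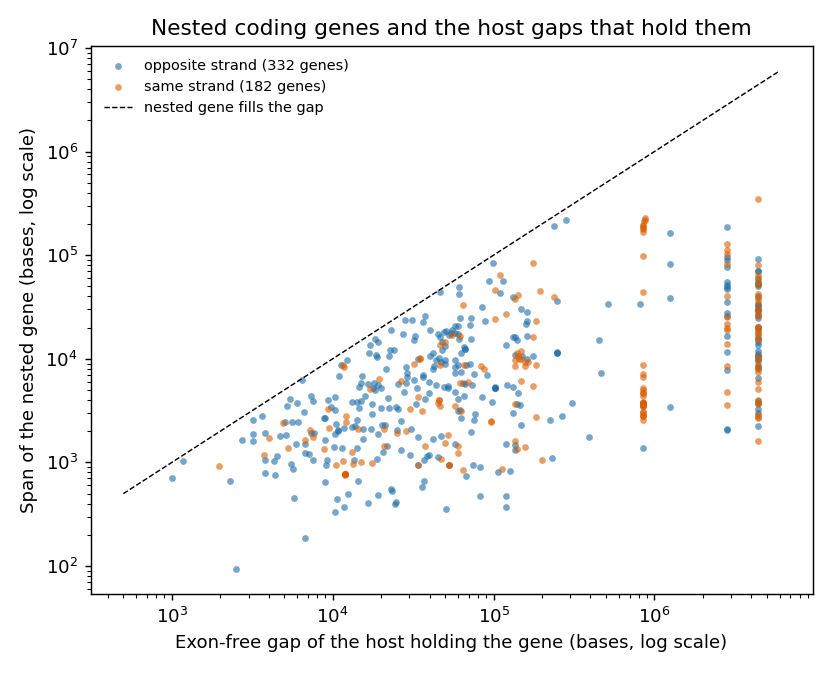
Span of each nested gene in bases (vertical, log scale) against the length of the exon-free gap of its tightest host in bases (horizontal, log scale). Each point is 1 of 514 genes, blue for the 332 on the opposite strand and orange for the 182 on the same strand, and the dashed line marks a gene that fills its gap. The columns of points at the right are genes that share a gap, the rightmost being the 4384418 bases of Gm20388.

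Nested genes lay in the first gap of their hosts more often than its share of gap bases. In the first gap of the host lay 217 genes, or 42.2% (38.0 to 46.5), while first gaps hold 27.6% of all gap bases of the hosts. Those bases include gaps too short to hold a gene, so the rule can bear on this difference as well. The share was 53.8% (46.6 to 60.9) on the same strand and 35.8% (30.9 to 41.1) on the opposite strand. Without the 5 hosts with the most nested genes the share fell to 29.5% of genes, against 19.4% of the gap bases of the remaining hosts. The intervals of the strands overlapped there, with 30 of 101 same-strand genes, or 29.7% (21.7 to 39.2), and 82 of 279 opposite-strand genes, or 29.4% (24.4 to 35.0), in the first gap. By the host's reading frame, 410 of the 592 pairs, or 69.3%, placed the nested gene between coding exons, 133 pairs (22.5%) in the 5′ untranslated part, 15 (2.53%) in the 3′ untranslated part, and 25 (4.22%) in a host transcript without a coding sequence.

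The label was not met by 9 pairs, or 1.52%, in which no single host transcript runs across the nested gene, so that the gene lies between exons of the merged model but in no intron. They are 6 gene models that carry the symbol Flg and lie inside a longer model of that symbol, which encodes the skin barrier protein filaggrin, together with Gm10097 in Syne1, 1700047I17Rik2 in Srp54b and Tcte3 in Ermard. In 165 further pairs, or 27.9%, the intron rests on 1 of several host transcripts. In 296 pairs every host transcript spans the nested gene, but in 263 of these the host has a single annotated transcript, and in 33 it has several. No nested gene was itself a host.

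A few hosts held many of the nested genes. Gm20388, a model of 4434882 bases on chromosome 8 with 1 transcript and 536 codons, held 71 genes in its first gap, 36 on its strand and 35 opposite. Next came 3 protocadherin-cluster models on chromosome 18, Pcdha4 with 34, Gm37013 with 32 and Gm37388 with 31, mostly sharing the same members. Fgfr2, a fibroblast growth factor receptor on chromosome 7, held 29, and 1 of its 26 transcripts reaches across them. These 5 hosts held 134 nested genes, or 26.1%, that had no other host, whereas 244 of the 303 hosts held 1 gene each. Chromosomes 18 and 8 had the highest shares of nested genes, 8.09% and 7.50% of their coding genes, and chromosome 15 the lowest, 1.02%. The members in the longest gap, that of Gm20388, include Spg7, Rpl13 and Zfp276 on its strand and Sult5a1, Chmp1a and Vps9d1 opposite to it. The longest coding sequences of opposite-strand members were those of Tacc2 in Fgfr2 with 2879 codons, and of Ankrd11 with 2664 and the mechanosensitive channel Piezo1 with 2546, both in Gm20388. On the same strand they were Urb2 with 1524 and Gse1 with 1223 codons in Gm20388, and Gm12429 with 1314 codons in Gm12394.

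Many pairs depend on how far the host model extends. For 422 pairs both genes were matched in a RefSeq gene table, where 239 pairs were also contained, 168 lay apart without overlap, 7 overlapped in part and 8 were 1 and the same gene. Of the contained pairs 84.5% placed the nested gene between coding exons and 13.4% in the 5′ untranslated part, against 35.1% and 44.6% of the pairs that lie apart. The intron rested on 1 of several host transcripts in 15.1% (11.1 to 20.1) of contained pairs and in 70.2% (62.9 to 76.6) of those apart. The contained pairs come from 181 hosts and those apart from 75, with 29 of the 168 in Fgfr2 through 1 of its 26 transcripts. Pairs in 1 host are not independent, so these intervals are too narrow and the shares apart lean on few hosts. Of the 281 hosts matched, 68 had a span over 1.5 times the RefSeq span, or 24.2% (19.6 to 29.5), against 3.21% (2.97 to 3.46) of coding genes that are not hosts. A host has to reach over another gene, so this difference is partly set by the rule. Fgfr2 spans 2960900 bases here and 104358 in RefSeq, a ratio of 28.4. The ratio was 9.35 for Slc22a14, 8.50 for the fractalkine receptor Cx3cr1, 7.69 for Il11ra1 and 5.05 for the kinase Pak4. The highest ratio was 129, for the olfactory receptor gene Olfr56, and the next was 68.7 for Fpr3, a formyl peptide receptor gene. For Med12l the ratio was 0.999, and the span of Nf1 was 241920 bases here and 242020 in RefSeq.

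**Figure D2:**
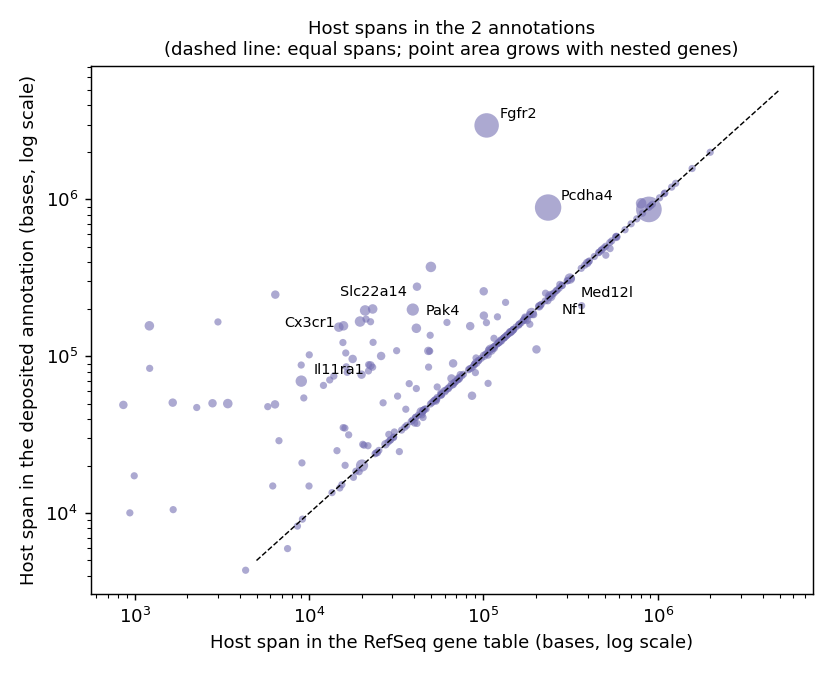
Span of each host in the deposited annotation (vertical, bases, log scale) against its span in RefSeq (horizontal, bases, log scale), for the 281 hosts matched. Point area grows with the number of nested genes and the dashed line marks equal spans. Most hosts lie on the line, and Fgfr2, with 29 nested genes, lies far above it.

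Per nested gene, at least 1 pair was contained in RefSeq for 224 genes, or 43.6%. Single-exon genes were most frequent in this subset. On the same strand 47 of 67 contained genes had 1 exon, or 70.1% (58.3 to 79.8), against 4 of 56 genes, or 7.14% (2.81 to 17), whose pairs lay apart. On the opposite strand it was 48 of 157, or 30.6% (23.9 to 38.2), against 8 of 88, or 9.09% (4.68 to 16.9). Both sets that lie apart had intervals that include the 11.2% of genes that are not nested. Without protocadherins, 25 of 37 contained same-strand genes had 1 exon, or 67.6% (51.5 to 80.4), and this interval still lies above that of the opposite strand. Single-exon members of this kind include Galnt4 in Poc1b with 578 codons, Papolb, a poly(A) polymerase of the testis, in Radil with 642, Chml, a Rab escort protein, in Opn3 with 621, and the olfactory marker protein Omp in Capn5 with 163.

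**Figure D3:**
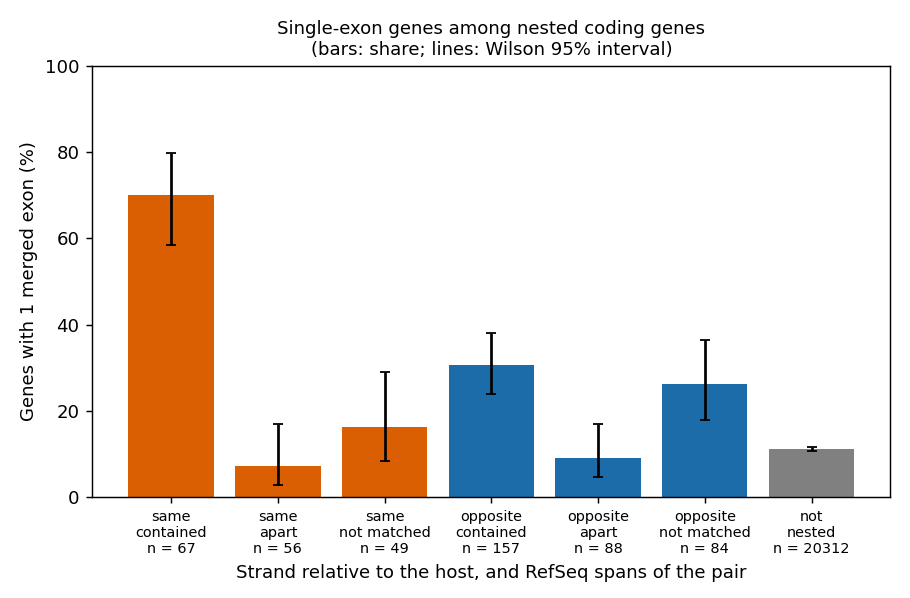
Share of genes with 1 merged exon, in percent, for nested genes by strand (orange same, blue opposite) and by whether the spans of the pair are also contained in RefSeq, lie apart there or could not be matched, with coding genes that are not nested in grey. Lines are Wilson 95% intervals and n is the number of genes. The 67 same-strand contained genes stand highest at 70.1%.

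Well-known nested pairs were recovered in most cases. Of 17 pairs listed from textbook knowledge 13 met the rule, and all 13 were contained in RefSeq. Evi2a, Evi2b and Omg, the oligodendrocyte myelin glycoprotein, lie opposite to Nf1, the neurofibromin gene, in gap 38 of 58, which is 59719 bases long. The imprinted genes Nnat, in Blcap, and Nap1l5, in Herc3, lie opposite to their hosts and fill 43.8% and 59.5% of their gaps. Mcts2 lies on the strand of H13 in a gap of 1961 bases, of which it fills 46.8%. Slc18a3, the vesicular acetylcholine transporter, lies on the strand of Chat, which makes acetylcholine, in the first gap of 4893 bases. Timp4, a metalloproteinase inhibitor, lies opposite to Syn2. Lrrtm1 in Ctnna2, Lrrtm2 in Ctnna1, Lrrn3 in Immp2l, Flrt1 in Macrod1 and Flrt3 in Macrod2, which encode leucine-rich repeat membrane proteins, are all opposite to their hosts. Another 3 pairs lay inside the span but touched host exons: Zrsr1 over 203 bases of Commd1, Timp3 over 1733 bases of Syn3 and Lrrtm3 over 627 bases of Ctnna3. In each case 1 host transcript made the contact, a retained intron in Syn3 and a processed transcript in Ctnna3. Zrsr1 is a member through another host, Gm28048. No model carries the symbol Gpr52.

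Several families stood out once the members had been seen, and their shares are given as description because they were picked for that reason. Leucine-rich repeat membrane genes of the Lrrtm, Lrrn, Lrtm, Lrfn, Flrt and Amigo families had 10 of 21 members nested, all 10 on the opposite strand, and 9 contained in RefSeq. Among secreted angiopoietin-like genes, Angptl1 lies in Ralgps2, Angptl2 in Ralgps1 and Angptl7 in Mtor, each opposite to its host and contained in RefSeq. The hosts Ralgps2 and Ralgps1 are paralogs, as are the nested Angptl1 and Angptl2. Receptors with a Gpr symbol had 8 of 64 nested, all opposite and 6 contained, and chemokines with their receptors 6 of 56, all opposite and 3 contained. Protocadherins had 32 of 58 nested and Hox genes 6 of 39, all on the strand of the host, with 30 and 3 contained. The protocadherin count depends on the host: Gm37013, of 104 codons, spans 889226 bases in RefSeq and contains all its nested genes there. Pcdha4 spans 234969 bases in RefSeq and contains only part of its own, and Gm37388 was not matched. Large families of repeated genes had few members nested, with 9 of 1097 olfactory receptors, 2 of 325 vomeronasal receptors and 1 of 354 genes with a Zfp symbol, which is 0.820%, 0.615% and 0.282% against 2.47% of all coding genes.

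Of the 321 gaps that hold nested genes, 50 hold more than 1. The genes of a shared gap were all on 1 strand in 28 of 50 gaps, and in 10 of the 11 gaps whose pairs are contained in RefSeq. Gaps of overlapping hosts are counted separately, so some genes recur, such as Adam4 and Gm4787 in both Gm20498 and Cox16. Gap 17 of 45 in Med12l, with 132794 bases, holds G-protein-coupled receptors of related sequence, among them P2ry13, P2ry14 and Gpr171, each opposite to the host. Gap 5 of 7 in Cenpp, with 161496 bases, holds the small leucine-rich proteoglycans Aspn, Ogn and Omd and the matrix protein Ecm2, all opposite. Gap 4 of 8 in Ubac2, with 65288 bases, holds the receptors Gpr18 and Gpr183, and Gpr183 responds to oxysterols in immune cells. Gap 2 of 17 in Patl2, with 48939 bases, holds B2m and Trim69.

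Few genes of the macrophage lists were nested. In a list of 26 LPS response genes 1 was nested, Ccl2, a chemokine that draws monocytes. In a list of 10 genes of the LPS receptor pathway, of which 9 are on these chromosomes, 1 was nested, Myd88. In lists of 10 macrophage identity genes and of 8 markers of other cell types none was nested, and no gene of any list was a host. Counts this small cannot be told from the 2.47% of all coding genes that are nested, and nothing particular to the lists is read from them. Ccl2 (chr11:82035571-82037453) lies opposite to Gm17268, a model with 1 transcript, 22 codons and 1 gap of 10273 bases, of which Ccl2 fills 18.3%. Gm17268 could not be matched in RefSeq. Myd88 (chr9:119335934-119341411) lies on the strand of Slc22a14, an organic-cation transporter family gene, in the first of 13 gaps. That gap is 175119 bases long, belongs to 1 of 4 host transcripts in its 5′ untranslated part, and also holds Oxsr1 and Slc22a13 on the same strand and Acaa1a on the opposite strand. In RefSeq the span of Slc22a14 reaches none of the 4, and each pair lies apart.

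**Figure D4:**
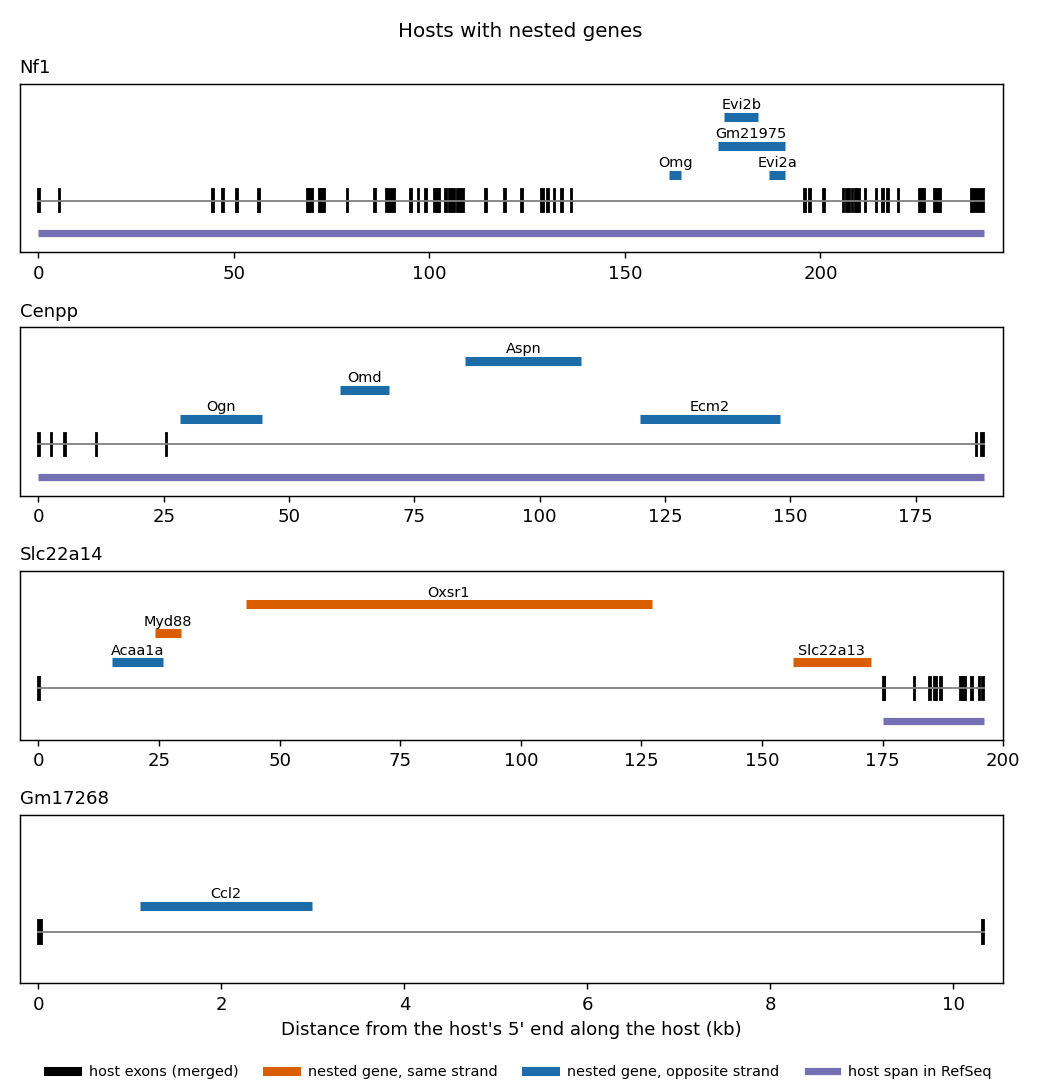
Maps of 4 hosts, each from its 5′ end in kb, with merged exons as black bars, nested genes as coloured bars on staggered rows (orange same strand, blue opposite strand) and the host's RefSeq span in violet. Nf1 and Cenpp have nearly the same span in RefSeq, the RefSeq span of Slc22a14 starts after its 4 nested genes, and Gm17268 has none.

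Other members with roles in macrophages or immunity were named after the set had been seen. Irf8, a transcription factor of macrophage and dendritic-cell development, lies on the strand of Gm20388, and Cyba, a membrane subunit of the phagocyte NADPH oxidase, lies opposite to it. Both are in the 4384418-base gap, 825418 and 1862417 bases from the nearer host exon, and Gm20388 was not matched in RefSeq. Opposite to their hosts and contained in RefSeq are Cd300lf in Rab37, an inhibitory receptor of myeloid cells, Igsf6 in Mettl9, an immunoglobulin-family receptor, and Cxcr6 in Fyco1, the receptor of the chemokine Cxcl16. They fill 32.6%, 55.9% and 29.8% of their gaps. The same holds for Fgl2 in Ccdc146, Ptx3 in Veph1, a soluble pattern-recognition protein, and Ifnk in Mob3b, a type I interferon, which fill 8.62%, 20.7% and 2.68%. The interferon-lambda genes Ifnl2, on the host's strand, and Ifnl3, opposite to it, lie in 1 gap of Pak4 with 134981 bases. The interferon-induced GTPases Tgtp1 and Tgtp2 lie opposite to the olfactory receptor gene Olfr56, and Cd27 opposite to Vamp1. In RefSeq the pairs with Pak4, Olfr56 and Vamp1 lie apart. Cx3cr1 is a host through 1 of its 2 transcripts, whose 3′ untranslated part runs over Gorasp1, Csrnp1 and Xirp1 on its strand and Ttc21a opposite to it, and these 4 pairs lie apart in RefSeq too. The sources used here do not say whether the libraries mark strand or how reads from host introns were counted, and any effect of nesting on read counts was not tested.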

How the data were processed

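Members and lists were chosen with earlier results of these data known. The single file used is a gene annotation of 1544831 lines that the authors deposited, and 0 of its columns hold values per library. The submitters' processing notes name TopHat2 version 2.1.1 and the mm10 build, and for how the annotation was assembled the sources used here give nothing. Gene models were read with Python 3.11.15, pandas 2.3.3 and numpy 2.4.6, and figures were drawn with matplotlib 3.10.9. Exons of all transcripts of a host were merged, and a gap is the stretch between merged exons, counted from the host's 5′ end. Where a gene had several hosts, the host of shortest span was used per gene. Codons are those of the longest coding sequence. Shares carry Wilson 95% intervals (scipy 1.17.1) and medians carry order-statistic intervals. RefSeq genes (assembly GRCm38.p6) were matched by symbol or unique synonym on the same chromosome. Only their spans were compared, and RefSeq exons were not checked. Genes named by rule were the textbook pairs, list members that were nested or hosts, the top 3 per strand by gap length, coding length and share of the gap, and the 5 hosts with the most nested genes. In simulated gene models 200 of 200 planted nested genes were found with the right strand and gap, and 0 of 200 were called wrongly. A few items are not reported here. Alternatives varied the host exons, gene models, chromosomes and hosts used.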

Additional observations from a re-analysis of the deposited data

How the results depend on the processing

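Of 63 values recomputed under other settings, 47 stayed within 1.5 times for a count or within the 95% interval for a share or median. The number of nested genes ranged from 224 to 548. It was 288 without Gm or Rik symbols and 224 where RefSeq spans were also contained. The opposite-strand share was 73.4% without the 5 hosts with the most nested genes and 70.1% with RefSeq containment. The single-exon share was 42.4% with RefSeq containment and 32.2% where the host transcript with the longest coding sequence spans the gene. The median coding length was 356.5 codons without Gm or Rik symbols and 280.5 without the 5 hosts. The share in the first gap was the least settled, at 34.7% without Gm or Rik symbols, 35.2% with added non-Ensembl models as host exons, 51.7% over introns of the host transcript with the longest coding sequence, 47.2% where that transcript spans the gene, 36.6% with RefSeq containment and 29.5% without the 5 hosts. The median gap was 39566 bases without the 5 hosts and 39821 with RefSeq containment. The settings on the 5 hosts, protocadherins, RefSeq containment and the spanning transcript were chosen after seeing the data. With only exons of coding host transcripts the count was 516, of which 491 were shared, and Timp3 and Lrrtm3 became members. No paired analysis was possible because the file holds no value per library. Symbols left 133 genes without a RefSeq comparison, and depth sets no limit here.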

Other observations

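Dnajb3, a heat-shock cofactor gene of 1 exon, had 8 hosts, the most of any nested gene. All are Ugt1a models, overlapping genes for glucuronosyltransferases that share their last exons, and Dnajb3 lies opposite to them, 9261 bases before the first of those shared exons. Its gap ranged from 13543 bases in Ugt1a2 to 158707 bases in Ugt1a10, so the share of the gap that it fills ranged from 7.76% to 0.662%. The shortest coding sequence among nested genes was that of Gm17662, with 8 codons, opposite to the complement gene C8a.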
